A study of Mus musculus with 4 samples.

Results

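The Sonic hedgehog pathway set comprised 9 genes, namely the ligand Shh, the receptor Ptch1, the signal transducer Smo, the coreceptor Boc, the decoy receptor Hhip, the inhibitor Sufu and the transcription factors Gli1, Gli2 and Gli3. Its members were all non-control probes that carry one of these gene names, 14 probes of 55681 on the array and 9 of 34793 array gene names. The set was picked because Shh was well above background only with CPEB3 IgG, so the values of Shh in that contrast are a description and carry no test. Ptch1, Smo, Hhip, Sufu and Gli1 had 2 probes each and the other 4 genes had 1.

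CPEB3 is an RNA-binding protein that attaches to the 3′ ends of mRNAs and regulates their translation at synapses. The arrays measured RNA recovered by immunoprecipitation from corticohippocampal lysate, with 2 arrays for beads carrying CPEB3 IgG and 2 arrays for beads carrying control IgG. The lysate came from 8-week-old male C57BL/6 mice and was left with the beads for 3 h, and 0.2 ug of each RNA was amplified and labelled with Cy3. Both groups shared strain, age, sex, tissue and incubation, and differed in the antibody. Nothing in the labels tells whether the replicate arrays stem from different animals or lysates, so the p-values cover the spread among these arrays alone, and some or all of that spread may be technical. No array of the input lysate was analysed here, and every value is relative to control IgG.

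Hedgehog ligands are secreted, lipid-modified proteins. In their absence Ptch1 keeps Smo inactive, and binding of the ligand to Ptch1 and a coreceptor such as Boc lets Smo signal at the primary cilium. Active Smo releases the GLI transcription factors from Sufu, whereupon Gli2 acts mainly as an activator, the processed form of Gli3 ceases to repress, and Gli1, Ptch1 and Hhip are themselves induced. In the adult forebrain the pathway is known for maintaining neural stem cells of the hippocampus and for signalling from neurons to astrocytes.

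Most of the member probes that measured the results below are shown by the DNA strand that matches the mRNA, 5′ to 3′, with coordinates on mm9 as in the files. The 2 whole 60-base probes are the upstream Ptch1 probe and the Sufu probe, neither of which was called. The others are the 30-base stretch of the probe richest in T, which stands for U in the mRNA. Capitals mark runs of at least 3 T. The number after each gene is the start of the probe in its transcript. Not shown are Hhip 4488 (45% T, not called) and Gli1 3573 (31.7% T, called lower).
Shh 2004, chr5:28784012-28784041, minus strand: aTTTattattgtgtgaactgtactcacagt
Ptch1 4207, chr13:63612879-63612938, minus strand: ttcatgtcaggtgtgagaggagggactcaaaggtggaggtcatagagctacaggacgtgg
Ptch1 6935, chr13:63610299-63610328, minus strand: agatcTTTgctgataTTTataaTTTTgtat
Smo 3529, chr6:29710919-29710948, plus strand: taaaactgcaatgagcacacacagacacac
Smo 3835, chr6:29711227-29711256, plus strand: tgtctagtcaTTTTcatagtgccccacatt
Boc 3861, chr16:44485673-44485702, minus strand: gactatatattgTTTgTTTgTTTgTTTgtt
Sufu 1132, chr19:46529259-46529318, plus strand: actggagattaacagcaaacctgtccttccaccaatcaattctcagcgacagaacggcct
Gli2 6031, chr1:120731267-120731296, minus strand: TTTgaggaactcttaactgaaTTTgcttgt
Gli3 8070, chr13:15821502-15821531, plus strand: tgttctcctctgacaagttacgcttgtata

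Between 68.0% and 73.4% of probes were well above background, the 75th percentile of the signal lay between 353 and 507 intensity units, and no spot was saturated. The spike-in probes followed the antibody, with a mean log2 signal of 13.08 and 13.44 on the CPEB3 IgG arrays and 14.00 and 14.02 on the control arrays, and their part in the results was not tested. Replicates correlated across probes at r = 0.986 for CPEB3 IgG and 0.977 for control IgG, against 0.925 to 0.939 between the antibodies. The 2 antibodies lay in separate rows of the slide, so the row and the antibody cannot be told apart. All 8 genes of a cortical and hippocampal marker list were above background on every array, and 2 of 3 cerebellar marker genes were not. All 4 hypothalamic marker genes were also above background on every array, with 2 of their 5 probes lower with CPEB3 IgG. Of the probes for oligodendrocyte markers 3 of 8 were lower, and of those for astrocyte markers 2 of 9 were higher and 3 lower. Neuronal markers had 1 probe higher and 2 lower of 7, microglial markers 1 lower of 8, cortical and hippocampal markers 2 lower of 10, and endothelial markers none called of 5. The part of these cell types in the results was not tested. The summed level of 3 choroid plexus markers, relative to the 75th percentile of the array, was 16.0 and 1.13 on the CPEB3 IgG arrays and 26.9 and 1.17 on the control arrays. The sum was high in replicate 1 of both groups, did not follow the antibody and was mostly that of Ttr. Kl and a Folr1 probe were also higher in replicate 1 of both groups, by less. Another Folr1 probe was lower there, at 34.5 against 62.5 with CPEB3 IgG and 49.5 against 73.3 with control IgG. With limma across 40608 probes, 6421 were higher and 7697 lower with CPEB3 IgG, a split of 45.5% higher among the calls that became 66.2% when arrays were scaled by their median and 87.0% when scaled by spike-in probes. The median difference over all probes was -0.19 on the log2 scale with the 75th-percentile scaling, 0.10 with the median scaling and 0.52 with the spike-in scaling.

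Shh, the only member ligand, was recovered with CPEB3 IgG and was not well above background with control IgG. Its processed signal, the spot brightness after background subtraction, was 181 on CPEB3 IgG replicate 1 and 99.99 on replicate 2. On the control IgG arrays it was 6.38 and 5.93. Both CPEB3 IgG arrays stood clear of both control arrays. The levels, in log2 units relative to the 75th percentile of each array, averaged -1.65 ± 0.24 (SD, n = 2) for the CPEB3 antibody and -6.14 ± 0.03 (SD, n = 2) for the control. These means lie 4.49 log2 units apart, given as a description because this contrast chose the set. Because the control level lay in the background, the difference is best read as a bound of 10.7-fold higher. The bound is set by the dimmest probe that still counted as well above background on each control array. It is not a strict lower limit. On control replicate 1 that dimmest probe read 12.1, whereas Gli2 read 17.6 there and was not well above background. Across all probes, 0.507% were well above background on both CPEB3 IgG arrays and neither control array, and 2.16% showed the reverse, a share from which nothing is read about Shh because it chose the set. These values measure recovery with each antibody and not how much Shh mRNA the tissue held. The lysate pools all cell types, so the cells that the recovered mRNA came from cannot be told.

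The Shh probe was printed in 10 places on each array, which shows the measurement without scaling. On CPEB3 IgG replicate 1 the spots ran from 161 through a median of 187 to 209, and 2 of them were outlier spots that did not enter the mean. On CPEB3 IgG replicate 2 they ran from 86.9 through 98.9 to 117. On the control arrays they ran from 3.76 through 5.95 to 16.2 and from 3.65 through 6.23 to 10.51. All 20 CPEB3 IgG spots were well above background and none of the 20 control spots was, and the lowest CPEB3 IgG spot exceeded the highest control spot. The SD of the 10 spots was 0.12 and 0.13 log2 units on the CPEB3 IgG arrays, against a median of 0.08 and 0.07 for other probes printed 10 times that were above background there. It was 0.77 and 0.53 on the control arrays, where other 10-spot probes below background had medians of 0.66 and 0.56. Spots of an array share 1 RNA sample and are not replicates. With a different background correction (normexp on the mean and background signals), which adds a constant of 50 to every signal, the Shh difference was 1.43, and it was 4.78 to 5.20 with quantile, median or spike-in scaling.

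**Figure D1:**
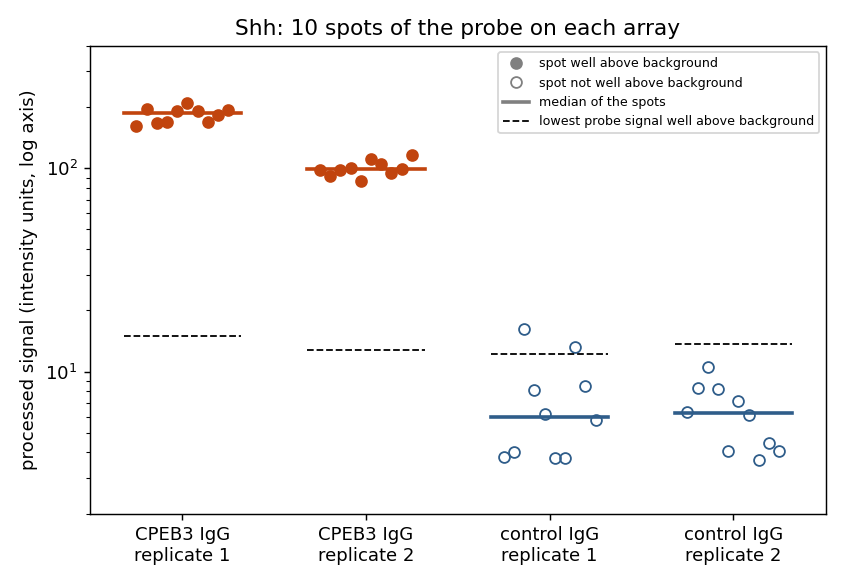
Processed signal (intensity units, log axis) of the 10 Shh spots on each of the 4 arrays, with filled circles for spots well above background, open circles for spots that were not, solid lines for the median and dashed lines for the lowest probe signal well above background on that array. The CPEB3 IgG spots lie between 86.9 and 209, and the control IgG spots between 3.65 and 16.2.

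Of the 13 other member probes, 10 could be tested and 3 were well above background on fewer than 2 arrays. With limma over all probes, 5 of the 10 were higher with CPEB3 IgG, 1 was lower and 4 were not called. Over all probes tested, 15.8% were higher and 19% lower, and the share was 22.6% higher and 20.2% lower among the 22096 probes named by a RefSeq mRNA. The median difference of the 10 member probes was 1.08, against -0.19 for all probes and -0.06 for the RefSeq-named probes. These counts describe a set chosen on this contrast and are not evidence about the pathway.

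**Figure D2:**
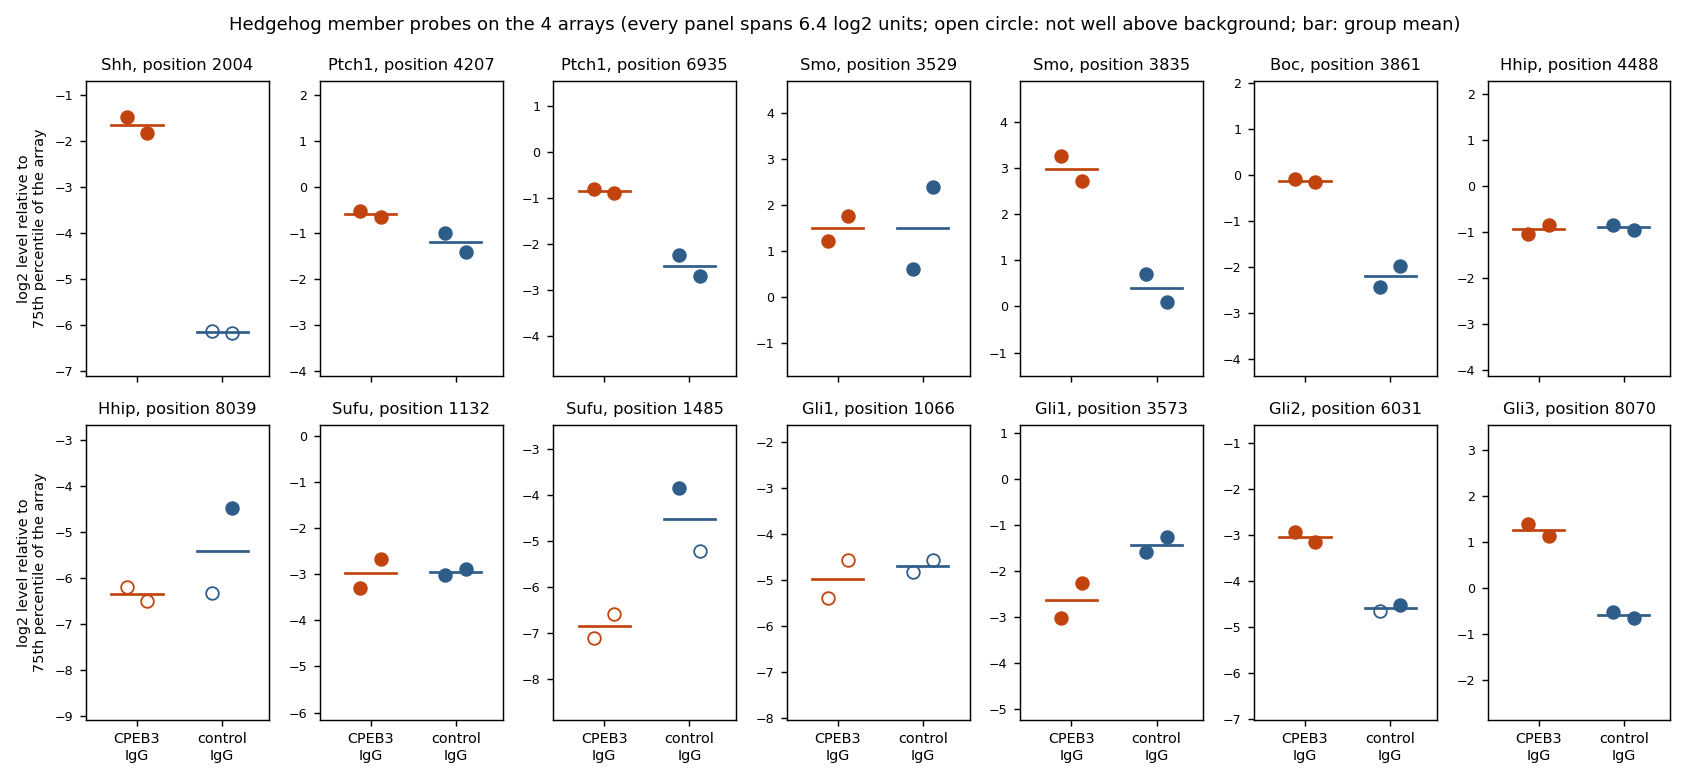
Levels of the 14 member probes on the 4 arrays, in log2 units relative to the 75th percentile of each array, with open circles for values not well above background and bars for group means, every panel spanning the same number of log2 units. Shh, both Ptch1 probes, Smo at 3835, Boc, Gli2 and Gli3 show both CPEB3 IgG values above both control values, whereas Gli1 at 3573 and the dim Sufu probe at 1485 show both below.

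Ptch1, the receptor that Shh binds, gave different answers at its 2 probes. The downstream probe, at 6935 of a cDNA clone, read 290 and 190 on the CPEB3 IgG arrays and 93.6 and 64.9 on the control arrays. The 2 groups did not overlap, and the probe was 3.09-fold higher with CPEB3 IgG, a log2 difference of 1.63 ± 0.22 (SE; 95% interval 1.03 to 2.22; limma adjusted p = 0.0104). The call was lost without CPEB3 IgG replicate 1 (1.58, adjusted p = 0.0639) and without replicate 2 (1.67, adjusted p = 0.0551). Over all 13 alternatives its adjusted p ran from 0.000700 to 0.0639.

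The upstream Ptch1 probe at 4207 read 352 and 224 on the CPEB3 IgG arrays and 221 and 160 on the control arrays. The groups came close without overlapping, as the signal of the second CPEB3 IgG array lay just above that of the first control array. Its difference was 0.62 ± 0.21 (SE; 95% interval 0.05 to 1.18) and was not called (limma adjusted p = 0.0875).

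The 2 Ptch1 probes were then set against each other within each array, which removes a constant scaling factor of the array. The downstream probe lay below the upstream probe by 0.28 and 0.23 log2 units with CPEB3 IgG and by 1.24 and 1.30 with control IgG, and the groups did not overlap. The gap between the antibodies was 1.01 ± 0.16 (SE; 95% interval 0.57 to 1.45; limma adjusted p = 0.0184 over 8028 pairs of probes of the same gene, of which 33.1% were called in either direction). The probes are 2581 bases apart on the genome, and 20% of the upstream and 46.7% of the downstream probe is T. This comparison was added after the values were seen, and the adjusted p was between 0.0701 and 0.0825 with any 1 array left out, with differences of 0.98 to 1.04.

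Smo, the transducer that Ptch1 holds inactive, split in the same direction. The downstream probe at 3835 read 4892 and 2335 on the CPEB3 IgG arrays and 725 and 453 on the control arrays. The lower CPEB3 IgG array was well above the higher control array, and the difference of 2.60 ± 0.32 (SE; 95% interval 1.74 to 3.45), or 6.05-fold, was called (limma adjusted p = 0.00850). Without CPEB3 IgG replicate 1 it was 2.32 with an adjusted p of 0.0510, the one alternative of 13 in which the call was lost, and over all 13 the adjusted p ran from 7.2e-07 to 0.0510.

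The upstream Smo probe at 3529 read 1165 and 1200 on the CPEB3 IgG arrays and 674 and 2203 on the control arrays. Its 2 control arrays differed from each other by more than the antibodies did, and they enclosed both CPEB3 IgG arrays. The difference was -0.01 ± 0.65 (SE; 95% interval -1.74 to 1.73; limma adjusted p = 0.994), an interval that is too wide to exclude a change as large as that of a called probe, and its sign turned with the scaling of the arrays. Within arrays the downstream minus the upstream probe was 2.07 and 0.96 on the CPEB3 IgG arrays and 0.10 and -2.28 on the control arrays. The groups did not overlap, but the gap of 2.60 ± 0.94 (SE; 95% interval 0.03 to 5.18) was not called (limma adjusted p = 0.106). It was called without control IgG replicate 1 (3.80, adjusted p = 0.0419). The 2 Smo probes start 306 bases apart, and T makes up 10% of the upstream and 25% of the downstream probe.

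Boc, a cell-surface coreceptor that helps Shh to bind Ptch1, was higher with CPEB3 IgG. Its probe at 3861 read 471 and 318 on the CPEB3 IgG arrays and 82.0 and 108 on the control arrays. The groups stood well apart, with a difference of 2.08 ± 0.22 (SE; 95% interval 1.49 to 2.66), or 4.22-fold (limma adjusted p = 0.00657). The call held in all 13 alternatives, with differences between 1.4996 and 2.79 and an adjusted p of at most 0.0489.

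Hhip, a membrane protein that captures Hedgehog ligands and so limits the signal, was not called. Its probe at 4488 read 246 and 195 on the CPEB3 IgG arrays and 247 and 217 on the control arrays. The 4 values were interleaved, and the difference was -0.04 ± 0.17 (SE; 95% interval -0.50 to 0.42; limma adjusted p = 0.875), with a sign that turned under quantile, median and spike-in scaling. The interval does not reach the size of the difference of Boc. The second Hhip probe, at 8039, read 6.91 and 3.88 on the CPEB3 IgG arrays and 5.50 and 19.0 on the control arrays, was above background only on control replicate 2 and was not tested.

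Sufu, the cytoplasmic protein that binds and restrains GLI factors, was not called either. Its probe at 1132 read 52.0 and 55.9 on the CPEB3 IgG arrays and 54.9 and 57.9 on the control arrays. The groups overlapped, and the difference was -0.03 ± 0.27 (SE; 95% interval -0.74 to 0.68; limma adjusted p = 0.941), again with a sign that depended on the background correction and the scaling. The second Sufu probe, at 1485, read 3.70 and 3.67 on the CPEB3 IgG arrays and 30.9 and 11.4 on the control arrays. It was well above background only on control replicate 1 and was not tested.

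The 3 GLI genes encode the zinc-finger transcription factors at the end of the pathway, and they did not move together. Gli3, whose processed form represses targets when no ligand is present, read 1315 and 770 on the CPEB3 IgG arrays and 309 and 270 on the control arrays. Both CPEB3 IgG arrays lay above both control arrays, with a difference of 1.84 ± 0.18 (SE; 95% interval 1.35 to 2.32), or 3.57-fold (limma adjusted p = 0.00607). It was called in all 13 alternatives, between 1.64 and 2.55, with an adjusted p of at most 0.0458.

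Gli2, the main activator, gave dim signals of 67.1 and 39.6 on the CPEB3 IgG arrays and 17.6 and 18.7 on the control arrays, and control replicate 1 was not well above background. The groups did not overlap, and the difference was 1.54 ± 0.18 (SE; 95% interval 1.06 to 2.03), or 2.91-fold (limma adjusted p = 0.00782). It was 0.38 with normexp background correction (adjusted p = 0.117) and 1.42 without CPEB3 IgG replicate 1 (adjusted p = 0.0505), and in these 2 of 12 alternatives it was not called. Over the 12 the adjusted p ran from 0.00114 to 0.117.

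Gli1, both a transcription factor and a target of the pathway, was the one member called lower. Its probe at 3573 read 62.5 and 74.6 on the CPEB3 IgG arrays and 147 and 178 on the control arrays. Both CPEB3 IgG arrays lay below both control arrays, and the difference was -1.21 ± 0.32 (SE; 95% interval -2.08 to -0.34), or 2.32-fold lower (limma adjusted p = 0.0496). This call sat at the threshold and was lost in 7 of 13 alternatives, in which the direction did not change. Among them the difference was -0.82 without CPEB3 IgG replicate 1 (adjusted p = 0.133), -1.38 without control replicate 1 (0.0724), -1.04 without control replicate 2 (0.123) and -0.50 with spike-in scaling (0.611), within a range of 0.0212 to 0.611 over all 13. The second Gli1 probe, at 1066 of a cDNA clone, read 11.9 and 14.9 on the CPEB3 IgG arrays and 15.6 and 17.8 on the control arrays, was not well above background on any array and was not tested.

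**Figure D3:**
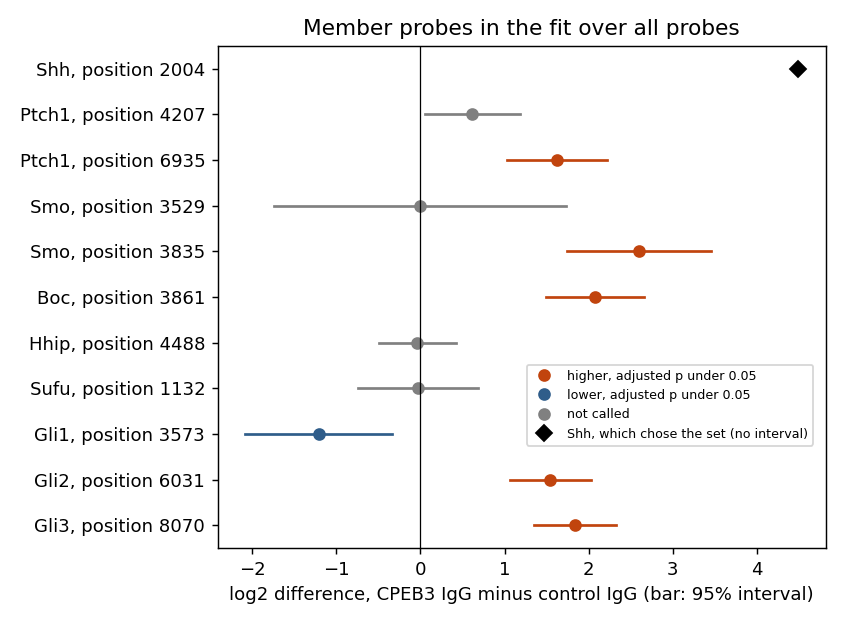
Log2 difference, CPEB3 IgG minus control IgG, for the 11 member probes with values in the fit over all probes, with bars for the 95% interval of every probe except Shh. Shh is drawn as a diamond without an interval or a test, 5 other probes lie to the right of 0 and were called higher, Gli1 at 3573 was called lower, and the intervals of the remaining 4 probes were not called.

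Features of the probes that played no part in choosing the genes were compared with those of the array. The share of T was 33.3% in the Shh probe and 46.7%, 25%, 36.7%, 38.3% and 36.7% in the 5 probes called higher (Ptch1 6935, Smo 3835, Boc, Gli2 and Gli3), against a median of 28.3% over all probes. It was 20%, 10%, 45% and 20% in the 4 probes not called (Ptch1 4207, Smo 3529, Hhip 4488 and Sufu 1132) and 31.7% in the Gli1 probe called lower. Hhip at 4488 therefore combined a high T share with no call, and Smo at 3835 a T share below the median with a 6.05-fold difference. Over all tested probes, 6.04% of those under 20% T were called higher and 29.3% lower, whereas 25.4% of those with 35% T or more were called higher and 9.99% lower. The T share and the difference thus moved together across the whole array, and their relation in the 10 member probes was not tested.

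Short motifs were searched on the mRNA strand of the 60-base probes. TTTTAT, a form of the cytoplasmic polyadenylation element, was in none of the 14 member probes and in 3.69% of all probes. TTTTAAT, another form of that element, was in Ptch1 6935 and in 0.908% of all probes. The polyadenylation signal AATAAA was in Gli3 8070 and in 10.1% of all probes, and TTTTT was in none of the member probes and in 10.2% of all probes. A match describes the probe and not a binding site, and the parts of the mRNAs outside these 60 bases were not read.

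The other genes of the pathway, a list of 47 genes with 80 probes, went in both directions. Of 70 probes tested in 46 genes, 21 (30%) were higher with CPEB3 IgG, 14 (20%) were lower and 35 were not called. Over all probes 15.8% were higher and 19% lower. Among probes named by a RefSeq mRNA, as most of the 70 are, the shares were 22.6% and 20.2%. The 14 include a Stk36 probe that passed the filter only through the control arrays. The median difference of the 70 probes was 0.17. Ihh, a sister ligand that acts in cartilage, was higher (0.96 ± 0.18 SE, limma adjusted p = 0.0208), and Dhh was not well above background. In the genes for release and lipid modification of the ligand 2 of 11 probes were higher, in receptors and coreceptors 3 of 10 were higher and 3 lower, and in the cilium and SMO-GLI transduction group 3 of 13 were higher and 5 lower. Among GLI kinases and degradation factors 7 of 23 probes were higher and 4 lower, and among target genes 5 of 12 were higher and 2 lower.

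**Figure D4:**
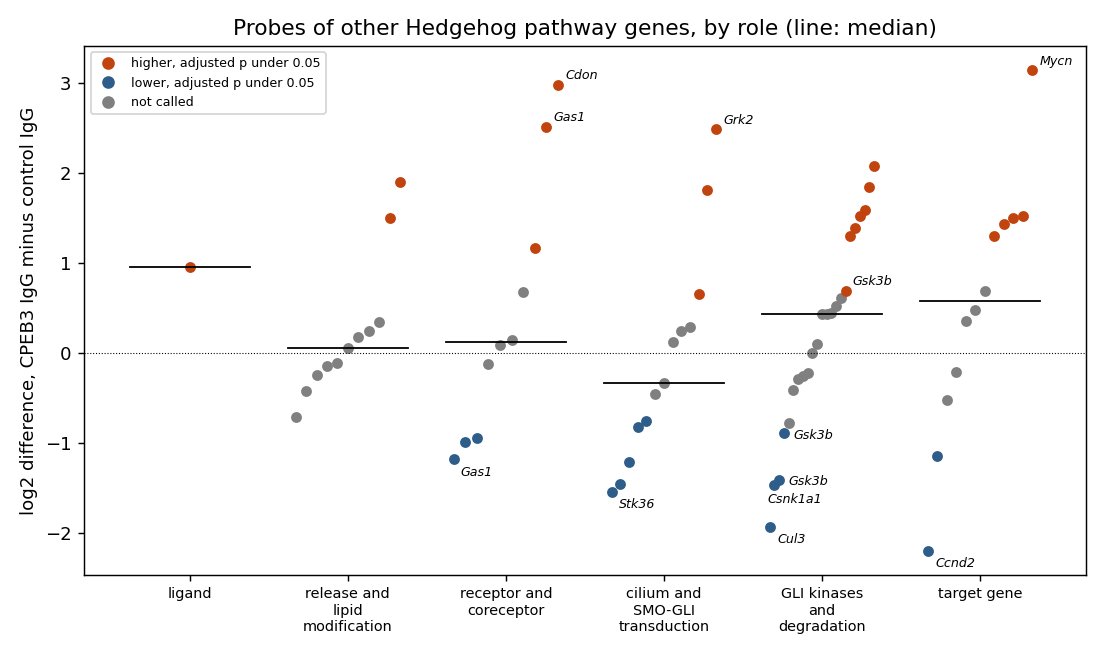
Log2 difference, CPEB3 IgG minus control IgG, for the 70 tested probes of other Hedgehog pathway genes, grouped by role, with a line at each group's median and colours for the calls. Receptors and coreceptors spread from -1.18 for a Gas1 probe to 2.99 for a Cdon probe.

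The largest positive differences were in Mycn, Cdon, Gas1 and Grk2. Mycn, a proto-oncogene induced by Shh in granule cell precursors, read 5416 and 2121 on the CPEB3 IgG arrays and 486 and 315 on the control arrays, a difference of 3.15 ± 0.37 (SE; adjusted p = 0.00802). The 2 groups were widely separated. Cdon, the close relative of Boc and likewise a coreceptor, read 1775 and 1166 on the CPEB3 IgG arrays and 196 and 176 on the control arrays at 7117, a difference of 2.99 ± 0.16 (SE; adjusted p = 0.00526), and its upstream probe at 3838 was also higher (1.17 ± 0.20, adjusted p = 0.0174). Grk2, a receptor kinase that phosphorylates active Smo, read 88286 and 88356 on the CPEB3 IgG arrays and 17003 and 15229 on the control arrays, a difference of 2.49 ± 0.24 (SE; limma adjusted p = 0.00579), and its groups did not overlap.

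Gas1, another coreceptor, was called in opposite directions at 2 probes of its transcript. The downstream probe at 2438 read 308 and 258 on the CPEB3 IgG arrays and 48.9 and 52.0 on the control arrays, a difference of 2.52 ± 0.18 (SE; limma adjusted p = 0.00526). The upstream probe at 1569 read 175 and 154 on the CPEB3 IgG arrays and 377 and 386 on the control arrays, a difference of -1.18 ± 0.19 (SE; adjusted p = 0.0154). Neither probe had overlapping groups. The upstream call was lost without CPEB3 IgG replicate 1 (-1.02, adjusted p = 0.0710) and with spike-in scaling (-0.47, adjusted p = 0.635), the 2 of 13 alternatives with that outcome, whereas the downstream call held in all 13. The within-array gap between the probes differed by 3.70 ± 0.16 (SE; 95% interval 3.26 to 4.15; limma adjusted p = 0.00905) between the antibodies. The stretches richest in T of both probes are shown because they differ in composition.
Gas1 1569, chr13:60277298-60277327, minus strand: ggccttgcgcgcccgggcggcggcgctgct
Gas1 2438, chr13:60276419-60276448, minus strand: tggtgttgaacaatgcatgTTTTTTatcct

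Ccnd2, Cul3, Stk36 and Csnk1a1 had the most negative fitted differences among the other pathway genes, though Stk36 has only a bound and its place in that order is not measured. Ccnd2, a cyclin of the G1 phase, read 652 and 523 on the CPEB3 IgG arrays and 2712 and 2779 on the control arrays, a difference of -2.20 ± 0.17 (SE; limma adjusted p = 0.00526). Cul3, the scaffold of the ubiquitin ligase that works with Spop, read 320.0 and 226 on the CPEB3 IgG arrays and 1088 and 1013 on the control arrays, a difference of -1.93 ± 0.15 (SE; adjusted p = 0.00526). In both genes every control array lay above every CPEB3 IgG array, and both calls were lost with spike-in scaling (-1.48, adjusted p = 0.0520, and -1.22, adjusted p = 0.132) and in no other of the 13 alternatives. Stk36, the Fused kinase, was not well above background on either CPEB3 IgG array at its probe at 621 (17.5 and 9.44, against 45.4 and 32.2 with control IgG). That probe passed the filter only through the control arrays, so its p-value (limma adjusted p = 0.0146) is not read as support. Its bound was 2.50-fold lower, and the call was lost in 5 of 12 alternatives. Among them the difference was -0.34 with normexp background correction, -1.72 without CPEB3 IgG replicate 1 and -1.36 without CPEB3 IgG replicate 2. The brighter Stk36 probe at 4324 was not called and had a positive difference (0.29 ± 0.23 SE, limma adjusted p = 0.374). Csnk1a1, a kinase that phosphorylates GLI proteins, also had a downstream probe with a positive difference. That probe, at 1876, was not called (0.62 ± 0.18 SE, adjusted p = 0.0634). The within-array gap between the Csnk1a1 probes differed by 2.08 ± 0.39 (SE; limma adjusted p = 0.0255) between the antibodies. At 773 Csnk1a1 read 1258 and 1403 on the CPEB3 IgG arrays and 4251 and 3316 on the control arrays (-1.46 ± 0.29 SE, adjusted p = 0.0247). That call was lost in 4 of 13 alternatives, including those without CPEB3 IgG replicate 1 (-1.12, adjusted p = 0.0781) or control replicate 1 (-1.31, adjusted p = 0.0681).

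Gsk3b, another GLI kinase, was the second gene called in both directions. Its probes at 2092 and 3309 were lower with CPEB3 IgG (-1.41 ± 0.21 SE, limma adjusted p = 0.0128, and -0.89 ± 0.17 SE, adjusted p = 0.0206) and its probe at 8226 was higher (0.69 ± 0.16 SE, adjusted p = 0.0324). All 3 probes had groups that did not overlap. The call at 3309 was lost in 8 of 13 alternatives and the call at 8226 in 7, among them the omission of any 1 array, with differences of -0.96 to -0.82 and 0.66 to 0.72. At 2092 the omission of CPEB3 IgG replicate 1 ended the call (-1.22, adjusted p = 0.0617), as did spike-in scaling (-0.69, adjusted p = 0.452). The within-array gap between the probes at 2092 and 8226 was 3.79 and 3.35 on the CPEB3 IgG arrays and 1.54 and 1.40 on the control arrays, a difference of 2.10 ± 0.23 (SE; limma adjusted p = 0.0103).

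Probe position was followed over all genes with several tested probes, a comparison added after the values of Ptch1 and Smo were seen. In the pair of outermost probes of a gene, the downstream probe had the larger difference in 74.7% of 5223 genes, with a median gap of 0.51, and limma called 30.5% of the pairs in that direction and 4.02% in the other. Ptch1 and Smo, the only members with 2 tested probes, both had the larger difference downstream, with 1 of the 2 called. Of 18 other pathway genes all 18 had it downstream, with a median gap of 1.82, and 11 (61.1%) were called in that direction. The 11 include Stk36, whose upstream probe was not well above background with CPEB3 IgG. These counts leave out pairs whose order by coordinate and by transcript position conflicted (591 of 8619 pairs). With the 3 pathway genes so affected (Disp2, Evc and Nkx2-2) put back, the downstream probe was the larger in 21 of 21 genes by transcript position and in 18 of 21 by coordinate, beside 73.4% and 73.5% of 5508 genes on the array. The direction of Ptch1 and Smo was therefore also that of most genes measured by several probes on this array.

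**Figure D5:**
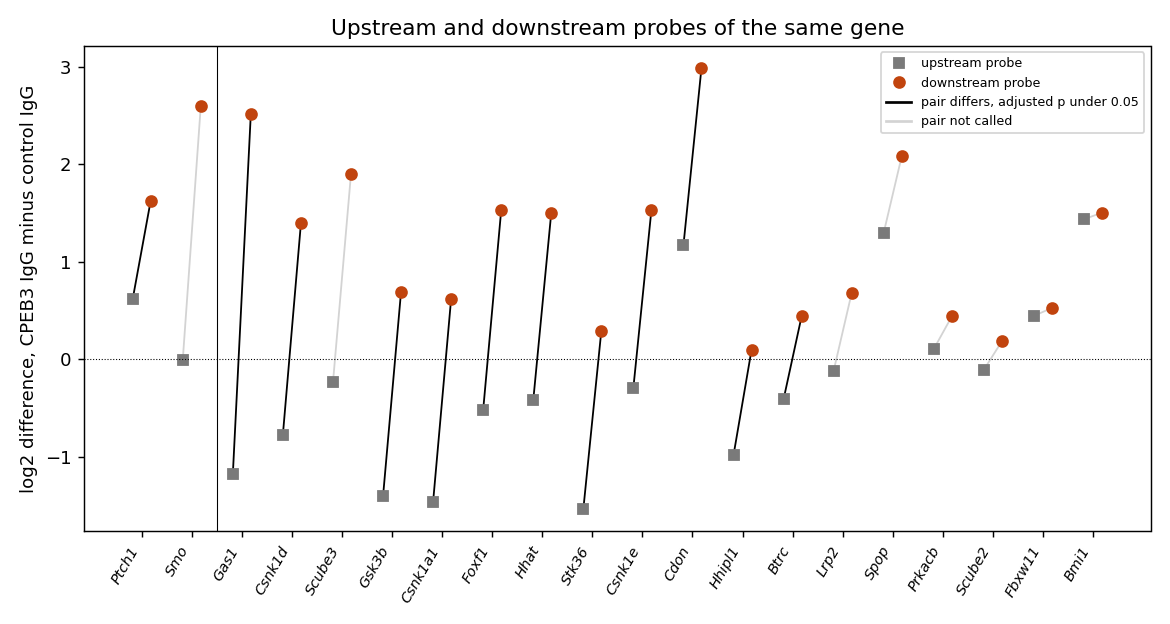
Log2 difference, CPEB3 IgG minus control IgG, of the upstream (square) and downstream (circle) outermost probe of each gene, joined by a black line where the pair was called and a grey line where it was not, with the members Ptch1 and Smo at the left. In these 20 genes each circle lies above its square, by 1.01 in Ptch1 and 2.60 in Smo.

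With 1 value a gene the counts depended little on the rule and single genes depended on it more. When the brightest probe stood for a gene, 18 of 54 member and other pathway genes without Shh were higher and 10 lower, beside 19.2% and 20.3% of all 27586 gene names. With the mean of a gene's probes the counts were 16 and 8, beside 16.8% and 20.1%. Ptch1 was not called by its brightest probe (0.62 ± 0.20 SE, limma adjusted p = 0.0768) and was called by the mean of its probes (1.12 ± 0.21 SE, adjusted p = 0.0192). Smo was called by both, at 2.60 ± 0.31 (SE; adjusted p = 0.00695) and 1.29 ± 0.24 (SE; adjusted p = 0.0192).

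The RefSeq-named probes whose 4 levels lay nearest to those of Shh belonged to Myt1, Hpse, Wdr19, Rhbdf2 and Has2, with Euclidean distances over the 4 arrays of 1.25, 1.47, 1.60, 1.61 and 1.66 log2 units. Like Shh, all 5 were well above background on both CPEB3 IgG arrays and on neither control array, which the measure of likeness favours. Myt1, a zinc-finger transcription factor of the oligodendrocyte and neuronal lineages, read 159 and 89.0 on the CPEB3 IgG arrays and 14.5 and 7.34 on the control arrays. Its bound was 8.68-fold higher. Has2, a hyaluronan synthase, read 110.4 and 70.9 on the CPEB3 IgG arrays and 12.5 and 12.2 on the control arrays, with a bound of 6.95-fold higher. In these 5 genes the bound lay between 6.54 and 8.68.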

How the data were processed

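The deposited intensities are those of Cy3 spots on 1-colour arrays, which Agilent Feature Extraction 10.5.1.1 made, per the file headers, by subtracting background and detrending each array in space, with substitute values near background. These intensities are not normalised between arrays. Probe coordinates are those of mm9 in the files, and exon or UTR positions were not analysed here. Which test the authors ran was not stated in the labels or headers.

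Control spots and spots marked as outliers were left out, spots of a probe were averaged as log2 values, and the 75th percentile of each array was subtracted. Probes were tested if 2 or more of the 4 arrays had them well above background, with limma 3.58.1 (lmFit, eBayes) in R 4.3.3, with Benjamini-Hochberg adjustment over 40608 probes and a threshold of 0.05. The number of arrays limits the precision. A probe dim on both arrays of a group has only a bound: the brighter group's mean level against the dim group's mean of, per array, the higher of the lowest signal well above background and the probe's own. Some probes brighter than that lowest signal were not well above background, so the bound is not a strict limit. Pairs of probes of a gene were tested with the same tool on their within-array differences, a test chosen after seeing the data. The scripts were tested on simulated data.

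The members and lists were chosen with earlier results of these data known, Cul3 among them, and 1 gene of the pathway list is not reported here. Named were all members, the 4 other pathway genes with the largest differences in each direction, those called in both directions, and the 5 probes nearest to Shh. Disp2, Evc, Nkx2-2 and the remaining probes of named genes were chosen after their values were seen. Alternatives were normexp background correction, quantile, median, spike-in or no scaling, no filter or a filter on all 4 arrays, a trended prior, the replicate number as a block, 1 value a gene, and each array left out.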

Additional observations from a re-analysis of the deposited data

How the results depend on the processing

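Over all probes, the 6421 higher calls became 3936 without scaling and 2368 to 4682 with 1 array left out. The 7697 lower calls became 4318 with median scaling, 966 with spike-in scaling, 4704 without a filter on dim probes and 2092 to 5381 with 1 array left out. Among other pathway genes, the 21 higher calls became 12 to 17 with 1 array left out, and the 14 lower calls became 9 without scaling and 2 to 11 with 1 array left out. With spike-in scaling limma left 0 lower calls there (2 at an unadjusted p under 0.05). Leaving out CPEB3 IgG replicate 1 gave the lowest of each of these ranges, and the lone array left is then assumed to vary like the other group.

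The probes Smo 3529, Hhip 4488 and Sufu 1132 changed sign and were not called in any alternative. Smo 3529 was 0.28 with median scaling, 0.71 with spike-in scaling and -0.89 to 0.88 with 1 array left out. Hhip 4488 was 0.086 with quantile, 0.25 with median and 0.68 with spike-in scaling, and -0.13 to 0.054 with 1 array left out. Sufu 1132 was 0.028 with normexp, 0.28 with quantile, 0.26 with median and 0.69 with spike-in scaling, and -0.34 to 0.28 with 1 array left out. Median scaling and spike-in scaling each shift the differences of all probes by the same amount, and the differences of these probes were small. The cause of the other changes of sign was not tested.

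With the replicate number as a block, 6865 probes were higher and 8983 lower, with 20 and 15 among other pathway genes, and the Smo pair was called (2.60, adjusted p = 0.0268). There were 2 pairs of same-numbered arrays, and their deviations correlated at 0.356 across probes. The choroid plexus marker Ttr read 7665 on CPEB3 IgG replicate 1 against 185 on replicate 2. On the control arrays Ttr read 11608 and 289, so same-numbered arrays shared a high or low level of this marker. The labels do not state that the numbers pair the samples, and the origin of the shared level was not tested. Signal over background limited the probes that were dim on both arrays of a group, which have a bound or no fold.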
